A study of Mus musculus with 2 samples.

Results

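The open chromatin around 10 genes that drive or restrain the cell cycle was examined in the mouse embryonic heart. The genes are the D-type cyclins *Ccnd1*, *Ccnd2* and *Ccnd3*, their kinase partners *Cdk4* and *Cdk6*, the transcription factor genes *Myc* and *Mycn*, and the inhibitors *Cdkn1a*, *Cdkn1b* and *Cdkn2a*. They were chosen by name, as 10 of the 21755 protein-coding genes that GENCODE M21 places on chromosomes 1 to 19 and X. For each gene, peaks found in both replicates were collected within 1 kb of every annotated transcription start and in a locus made of the gene body and 50 kb on each side. All coordinates are those of GRCm38/mm10.

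The study profiled whole hearts of wildtype (WT) FVB embryos at E11.5, with 49 to 51 somites, by ATAC-seq, in which a transposase tags DNA that is not packed into nucleosomes. It had 2 replicates of 2 pooled hearts each, and both belong to the same group. No other condition was analysed here, so the values below are described and no test between conditions was possible. In whole hearts, a site open in more cells and a site more open in each cell cannot be told apart.

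D-type cyclins bind CDK4 or CDK6, and the resulting kinases phosphorylate the retinoblastoma protein, which frees E2F factors to switch on the genes of DNA replication. MYC and MYCN act upstream of this step as transcription factors that promote growth and division, and MYCN is known for its role in the expansion of the embryonic myocardium. The products of *Cdkn1a* and *Cdkn1b* (CIP/KIP family) and the INK4a product of *Cdkn2a* inhibit cyclin-dependent kinases, while the ARF product of *Cdkn2a* stabilizes p53. At midgestation most heart muscle cells still divide, and they later leave the cell cycle around birth.

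The peak lists held 118027 peaks in replicate 1 and 114783 in replicate 2, and their overlap gave 98924 shared regions, of which 98850 lie on chromosomes 1 to 19 and X. Each region is given with its fold enrichment, the authors' ratio of the read pileup at a peak summit to a single genome-wide background (1 is added to each), as the highest value among the overlapping peaks in each replicate. The steps between fold enrichment values correspond to a background of 2.68 reads in replicate 1 and 2.98 in replicate 2, so that 1 read is worth 0.272 and 0.251. Read totals were not used here, and no counting interval was computed. Markers of the heart had a shared promoter region, with 7 of 7 cardiomyocyte genes, 5 of 5 endocardial and endothelial genes and 4 of 4 epicardial genes, as did 3 of 4 blood genes (*Ptprc* had none). Of 6 genes that mark other tissues only *Cdx2* had one (3.80 and 4.78), close to the lowest cardiomyocyte marker, *Tbx5* (5.43 and 4.78).

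All 10 genes had a shared region within 1 kb of at least 1 annotated start, a state found in 68.1% of protein-coding genes. The most accessible promoter was that of *Cdk4* (49.4 in replicate 1, 50.5 in replicate 2), and the least accessible were those of *Ccnd1* (12.8 and 12.3) and *Cdkn1a* (10.9 and 13.6). Among protein-coding genes with a promoter region, *Cdk4* exceeded 97.0% in replicate 1 and 98.4% in replicate 2, whereas *Cdkn1a* exceeded 16.6% and 24.2%. The median over the 10 genes was 20.1 and 19.6, against 24.4 and 24.6 over all genes with a promoter region, and 4 of the 10 lay above that median in each replicate. An open promoter was thus shared by drivers and inhibitors, and 6 of the 10 stood below the median of all genes.

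In descending order of the mean of both replicates, *Cdk4* was followed by *Cdkn1b* (38.0 and 39.5), *Myc* (29.3 and 31.2), *Ccnd3* (29.6 and 30.4), *Mycn* (19.6 and 20.6), *Cdk6* (19.01 and 18.60), *Cdkn2a* (19.8 and 17.6), *Ccnd2* (20.4 and 16.8), *Ccnd1* and *Cdkn1a*. The replicate values of *Myc* and *Ccnd3* overlapped, as did those of *Cdk6* and *Cdkn2a*, *Cdkn2a* and *Ccnd2*, and *Ccnd1* and *Cdkn1a*, so these neighbours were not ordered by the data. Further apart, *Mycn* overlapped *Cdkn2a* and *Ccnd2*, and *Cdk6* overlapped *Ccnd2*.

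**Figure D1:**
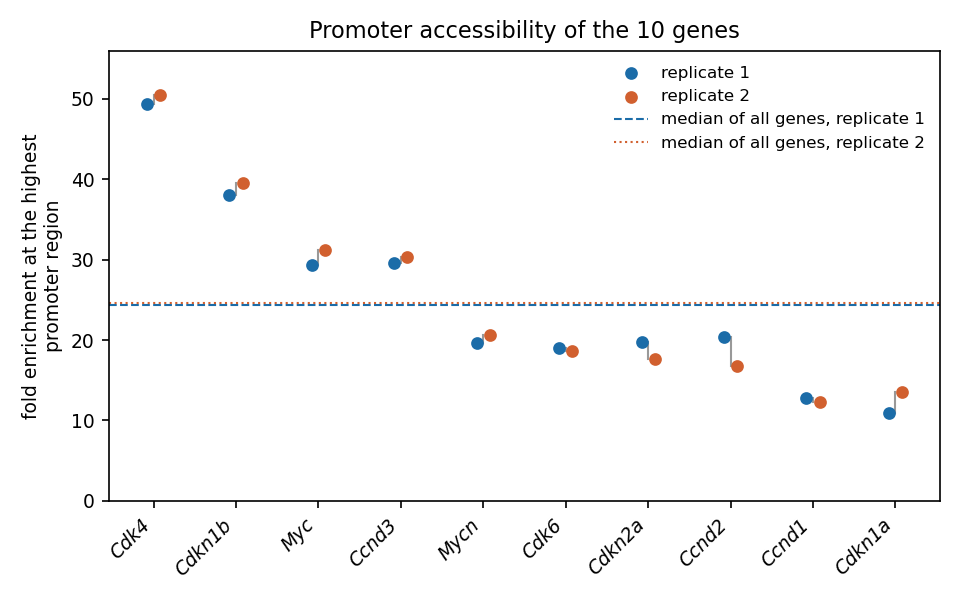
Fold enrichment at the highest promoter region of each gene (y axis, ratio to the genome-wide background) in replicate 1 (blue) and replicate 2 (orange), with a grey line between the replicates of a gene. Dashed and dotted lines give the median of all protein-coding genes with a promoter region (24.4 and 24.6), above which lie *Cdk4*, *Cdkn1b*, *Myc* and *Ccnd3* in both replicates.

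The 10 genes have 62 annotated starts, and 57 of them (91.9%) had a shared region within 1 kb, against 58.2% of the starts of all protein-coding genes. The 58.2% also counts starts of genes without any promoter region, whereas all 10 genes have one, so these shares are not like for like. Several of these starts share 1 region, as at *Ccnd3* (19 starts) and *Cdk4* (9), and are not separate observations. The 5 starts without one were an internal start of *Ccnd2* (127139152), an internal start of *Cdk6* (3470949) and 3 starts of *Cdkn1a*. The region with the highest fold enrichment of each gene had a median length of 3456 bp, against 1351 bp over all genes with a promoter region, and ran from 524 bp at *Cdkn1a* and 1362 bp at *Ccnd1* to 4356 bp at *Myc* and 5225 bp at *Mycn*.

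The sequences below show what lies at the 5 most accessible promoters. They are from the plus strand of the GRCm38/mm10 reference (strain C57BL/6J, whereas the embryos were FVB), and no window contains an annotated exon. The *Cdk4* window is centred on the replicate 1 summit, and the other windows are the bases just before an annotated start, since their summit windows reach into exons. For *Myc* and *Ccnd3* that start is an internal one, 1643 bp and 88385 bp downstream of the outermost start. *Mycn* is transcribed from the minus strand, so its sequence reads against the direction of the gene. Capitals mark exact matches, on either strand, to CACGTG (the E-box bound by MYC with MAX), GGGCGG (SP1) or TTTGGCGC (E2F).
Cdk4 promoter, chr10:127063399-127063499: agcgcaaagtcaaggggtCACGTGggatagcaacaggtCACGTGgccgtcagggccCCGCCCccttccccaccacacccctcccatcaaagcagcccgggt
Cdkn1b promoter, chr6:134920300-134920400: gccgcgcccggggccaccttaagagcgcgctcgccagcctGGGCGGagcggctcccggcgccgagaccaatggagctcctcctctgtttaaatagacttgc
Myc promoter, chr15:61986933-61987033: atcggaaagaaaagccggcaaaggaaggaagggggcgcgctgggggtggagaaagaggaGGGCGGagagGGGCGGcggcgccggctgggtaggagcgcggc
Ccnd3 promoter, chr17:47593335-47593435: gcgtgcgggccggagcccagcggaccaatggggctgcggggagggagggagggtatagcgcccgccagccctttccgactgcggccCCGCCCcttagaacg
Mycn promoter, chr12:12941915-12942015: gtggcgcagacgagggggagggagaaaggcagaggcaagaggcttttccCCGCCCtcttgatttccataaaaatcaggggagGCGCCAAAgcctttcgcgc

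All 5 windows hold an SP1 match, 2 E-boxes stand in the *Cdk4* window, and an E2F match stands in that of *Mycn*. The SP1 matches shown for *Myc* and *Cdkn1b* lie outside the 300 bp summit windows counted next, and the *Myc* summit window holds none. In the wider window of 300 bp on the summit, *Cdk4* held 4 E-boxes. An E-box was found in 3 of the 17 distinct promoter windows of these genes (17.6%), against 8.36% of the windows at all promoter regions. They were those of *Cdk4*, *Cdk6* and a side region of *Ccnd2* (127153119 to 127153727), while the window of the highest *Ccnd2* promoter region held none. SP1 matches were found in 10 of the 17 (58.8%, against 51.3%). TTTGGCGC was found in 1 of the 17 (5.88%, against 0.660%), that of *Mycn*, which held 2 such matches, and TTTCCCGC in 0 of the 17 (1.40% over all). The NF-Y motif ATTGGC was found in 2 of the 17 (11.8%, against 15.3%) and the CRE motif TGACGTCA in 0 (2.31% over all). With 17 windows, 1 window amounts to 5.88%, and a match describes letters and not binding.

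*Cdk4*, which encodes the kinase partner of the D-type cyclins, had its summit in the same place in both replicates, 1 bp apart, in a region of 1782 bp (chromosome 10, 127062900 to 127064681). A second region of 388 bp (127065873 to 127066260) covered an internal start and was much weaker, at 7.88 in replicate 1 and 5.53 in replicate 2. The gene is short and its neighbourhood dense, and 8 of the 14 regions in its locus were promoters of other genes. The 4 non-promoter regions lay in or beside *Avil* and *Tsfm*, *March9* and *Agap2*, and none of them was nearest to a *Cdk4* start. Replicate 1 alone gave 9. The highest of these, at 127058145 to 127058593 in an exon of *March9*, had 8.69 and 8.04. The next were in an exon of *Agap2*, at 127090885 to 127091452 (5.43 and 5.28), and in an intron shared by *Avil* and *Tsfm*, at 127016577 to 127016815 (5.43 and 3.52). The median over all protein-coding genes was also 4 non-promoter regions.

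*Cdk6*, the alternative kinase partner, had a different layout. Its single promoter region (chromosome 5, 3341007 to 3344809, 3803 bp) had 19.01 in replicate 1 and 18.60 in replicate 2, while 18 non-promoter regions followed along the gene body of 189524 bp and none lay in the flanks. Of these, 17 were intronic. The highest, 175 kb downstream of the start at 3516662 to 3517029, had 9.78 and 8.80. It was followed by 3502560 to 3503439 (8.69 and 8.80) and 3462523 to 3463164 (6.79 and 6.54). The highest exceeded 80.6% of all non-promoter regions in replicate 1 and 80.8% in replicate 2. None of the 18 passed a fold enrichment of 10 in both replicates.

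The summit sequence of the highest region of *Cdk6* is shown with those of *Ccnd3* and *Ccnd1*, because these 3 loci held the most non-promoter regions. They come from the plus strand of GRCm38/mm10 and are centred on the replicate 1 summit, and *Ccnd1* is transcribed from the minus strand. Capitals mark an exact match, on either strand, to the TEAD motif GGAATG in the *Ccnd3* window. In the *Ccnd1* window they mark the E2F motif TTTCCCGC and the NF-Y motif ATTGGC. The *Cdk6* window holds no match to the 10 motifs searched.
Ccnd3 intron, chr17:47521811-47521911: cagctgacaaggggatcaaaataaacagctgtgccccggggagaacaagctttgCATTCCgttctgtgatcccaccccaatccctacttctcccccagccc
Cdk6 intron, chr5:3516775-3516875: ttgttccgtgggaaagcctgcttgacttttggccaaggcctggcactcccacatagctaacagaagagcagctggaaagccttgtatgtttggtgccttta
Ccnd1 upstream, chr7:144941587-144941687: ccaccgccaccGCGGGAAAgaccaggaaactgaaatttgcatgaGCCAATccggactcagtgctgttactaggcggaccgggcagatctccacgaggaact

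*Ccnd3* had the strongest accessibility outside promoters. Along an intron near the 5′ end of the gene, the region at 47521371 to 47522922 on chromosome 17, 16.8 kb downstream of the outermost start, had 30.7 in replicate 1 and 33.4 in replicate 2. The region at 47535351 to 47536485 (30.9 kb) had 23.6 and 30.2, and the region at 47511005 to 47512061 (6.24 kb) had 28.2 and 24.6. Each exceeded at least 98.5% of all non-promoter regions in both replicates, and in both the first of them was higher than the promoters of the 10 genes other than *Cdk4* and *Cdkn1b*. A neighbouring region (47523020 to 47523707) is listed at 11.1 and 33.4, but in replicate 2 a single peak covers both, and its summit lies in the first.

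Within *Ccnd3*, the starts fall into 2 groups. The outermost 11 starts shared a region of 960 bp (47504548 to 47505507) with 13.6 in replicate 1 and 15.6 in replicate 2. The 8 internal starts, from 88.4 kb downstream, were covered by or lay next to a region of 3845 bp (47593096 to 47596940) with 29.6 and 30.4, higher in both replicates than the outermost group. A further region (47597658 to 47598731) had 13.6 in replicate 1 and shared its replicate 2 peak with that region. Of the 18 non-promoter regions of the locus, 10 lay in the gene body and 9 passed a fold enrichment of 10 in both replicates. The highest outside the gene body was 47617278 to 47618199 in an intron of *Med20* (14.4 and 17.3).

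*Ccnd1* had a weak promoter with stronger chromatin just in front of it. The region at its outermost start (chromosome 7, 144939168 to 144940529) had 12.8 in replicate 1 and 12.3 in replicate 2, and a region inside the gene at an internal start (144937485 to 144938424) had 8.42 and 6.28. The region 1.71 kb upstream, at 144941164 to 144942442, had 18.2 and 14.6, above the promoter in both replicates. Next to it, 3.56 kb upstream, the region at 144942660 to 144943736 had 13.0 in replicate 1, and in replicate 2 it was part of the same peak as its neighbour (14.6). The third, at 144906909 to 144907599, lay 32.7 kb downstream in an exon of *Gm39119*, with 9.78 and 10.8. The remaining 5 of its 8 non-promoter regions included 2 beside *Fgf15*, of which 144894738 to 144895125 is listed at 3.80 and 14.6 because its replicate 2 peak has its summit on the *Fgf15* promoter.

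*Ccnd2* had a broader promoter than *Ccnd1*, and unlike there it stood above all non-promoter regions of the locus in both replicates. A region of 3533 bp (chromosome 6, 127149428 to 127152960) covered 5 of its 7 starts, with 20.4 in replicate 1 and 16.8 in replicate 2, and its summits lay 1469 bp apart in the replicates. A region in the gene body (127147658 to 127148157) had 15.8 and 10.3. The region directly upstream (127153119 to 127153727) had 9.24 in replicate 1 and joined the promoter peak in replicate 2 (16.8). Among its 6 non-promoter regions, the one 2.80 kb upstream at 127154493 to 127155272, in an intron of the lncRNA gene *9330179D12Rik*, was the highest, with 14.9 and 13.6. It was followed by 127079838 to 127080335 in an exon of *Fgf23* (10.6 and 8.30) and by 127142198 to 127142919 in an intron of *Ccnd2* (6.25 and 7.04).

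**Figure D2:**
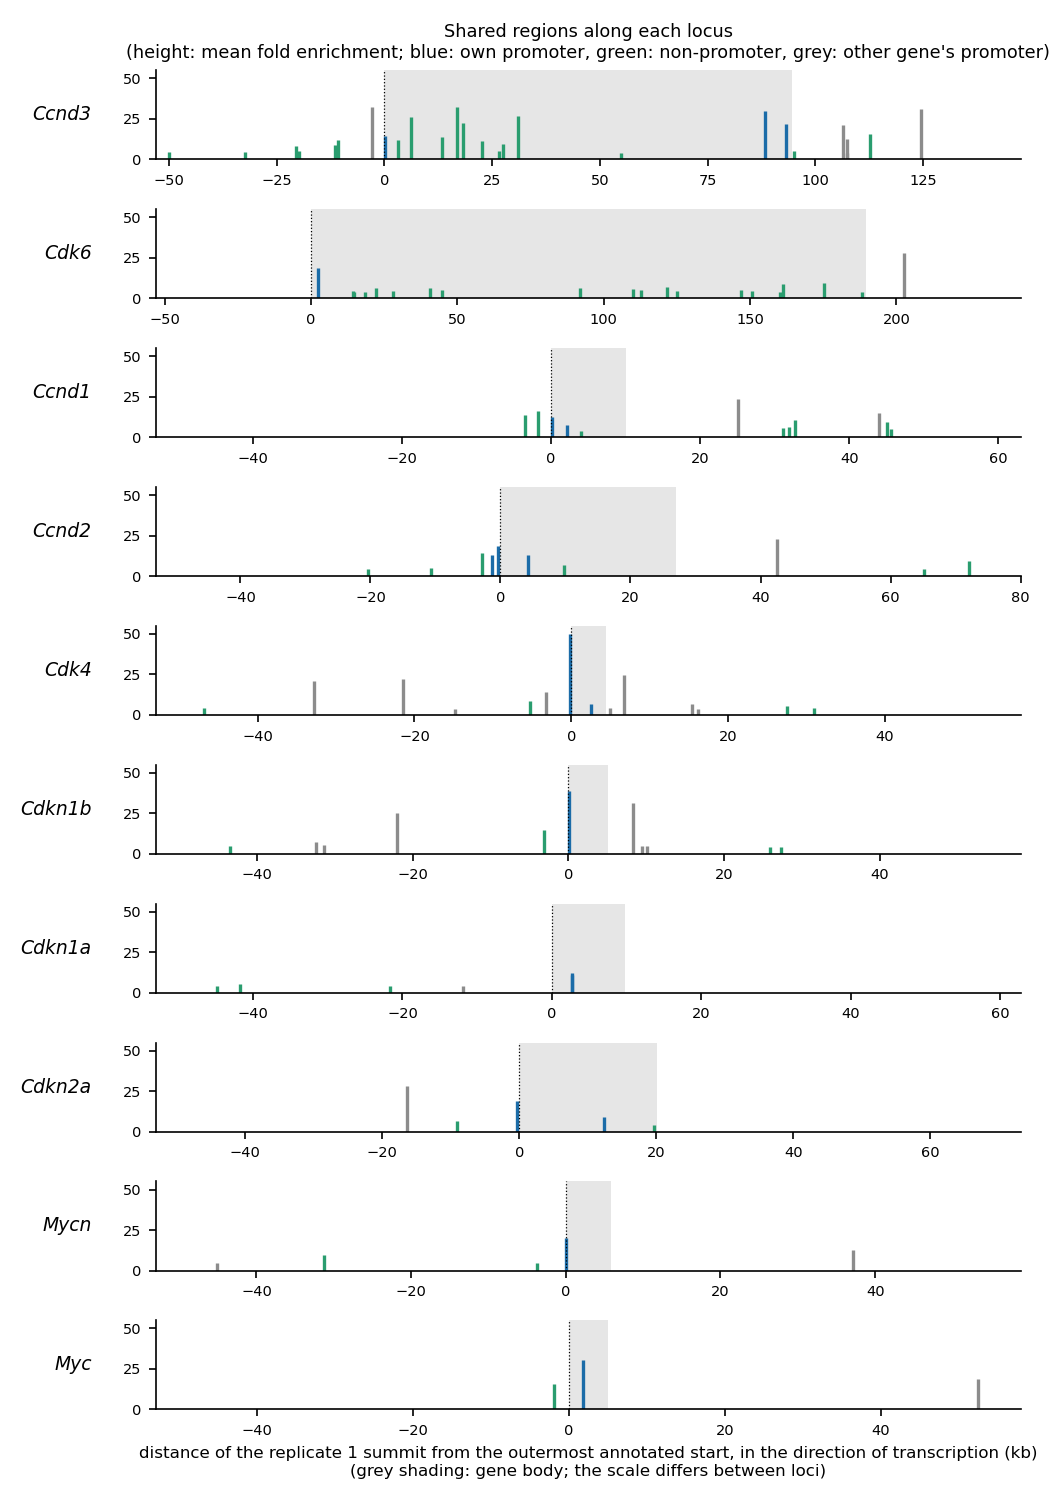
Shared regions along the 10 loci, each as a vertical line at the distance of its replicate 1 summit from the outermost start of the gene (x axis, kb in the direction of transcription, with a scale of its own in each panel). Line height is the mean fold enrichment of both replicates, blue marks the gene's own promoters, green non-promoter regions, grey promoters of other genes, and shading the gene body. The highest green lines of *Ccnd3* stand near its 5′ end, those of *Cdk6* lie below 10 along the whole gene, and *Myc* has 1.

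*Myc* and *Mycn*, the MYC family genes of the group, both had a long promoter region and few other regions within 50 kb. At *Myc* (chromosome 15), the region from 61984109 to 61988464 covered all 6 starts, with 29.3 in replicate 1 and 31.2 in replicate 2, and its summit lay 1.77 kb downstream of the outermost start. The only non-promoter region of the locus, 1.85 kb upstream at 61983286 to 61983733, had 16.0 and 15.3. At the downstream end, 52.5 kb from the start, stood the promoter of the lncRNA gene *Pvt1* with 17.4 and 19.6. The *Myc* locus held the fewest non-promoter regions of the 10 (with replicate 1 alone it had 2, as did *Mycn*), and its single one exceeded 94.6% of all non-promoter regions in replicate 1 and 94.5% in replicate 2.

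At *Mycn* (chromosome 12), the region from 12937810 to 12943034 covered all 3 starts, with 19.6 in replicate 1 and 20.6 in replicate 2. Its 2 non-promoter regions lay upstream. The one at 12972828 to 12973494 (31.3 kb) had 10.6 and 9.05, and the one at 12945553 to 12945782 (3.74 kb) had 5.98 and 3.77.

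Of the CIP/KIP inhibitors, *Cdkn1b* had a much higher promoter than *Cdkn1a*. *Cdkn1b* (chromosome 6) had 38.0 in replicate 1 and 39.5 in replicate 2 over 134919499 to 134922877, and summits 8 bp apart. The region 3.20 kb upstream at 134916380 to 134917728 had 16.8 and 13.1, and the promoter of the lncRNA gene *Lockd*, 8.28 kb downstream of the *Cdkn1b* start, had 29.6 and 33.4. The other 3 of its 4 non-promoter regions did not pass 5.28 in either replicate. They lay in *Gpr19* at 134876771 to 134877086 (5.16 and 5.03) and in *Lockd*, where 134947615 to 134947715 had 3.26 and 5.28.

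*Cdkn1a* (chromosome 17) was open at 2 of its 5 annotated starts. The region at the starts 29093769 and 29093781 (29093507 to 29094030) had 10.9 in replicate 1 and 13.6 in replicate 2. The region next to it (29094093 to 29095865) belonged to the same peak in replicate 1 and had 11.1 in replicate 2. The outermost starts, 29090976 and 29090979, had their nearest shared region 2531 and 2528 bp away, and the start at 29097900 had it 2035 bp away. Its 3 non-promoter regions lay upstream of the gene. They had 5.70 and 5.28 at 29049122 to 29049358, 4.89 and 4.02 at 29069099 to 29069378 in an intron of *Trp53cor1*, and 4.62 and 4.02 at 29046180 to 29046408.

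*Cdkn2a* (chromosome 4) encodes INK4a and ARF from separate starts. Per the annotation these lie 12461 bp apart, and both were open, the upstream start (89294653, that of ARF) at 19.8 in replicate 1 and 17.6 in replicate 2, and the downstream start (89282192, that of INK4a) at 8.69 and 8.80. The upstream start was the higher one in both replicates. The neighbouring inhibitor gene *Cdkn2b* had its promoter in the same locus with 30.2 and 26.4, above both. The 2 non-promoter regions had 7.61 and 5.53 (89303565 to 89303978, nearest to *Cdkn2b*) and 4.07 and 4.53 (89274764 to 89275189, in an exon of *Cdkn2a*). Replicate 1 alone gave 6 such regions and replicate 2 alone 4.

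Over all 10 loci, 112 shared regions were found. Of these, 18 were promoters of the 10 genes, 28 were promoters of other protein-coding or lncRNA genes, and 66 (58.9%) were non-promoter regions, against 76.5% of shared regions genome-wide. The genome-wide share also counts regions far from any gene, and the share over the windows of all genes is not given here. A locus was called promoter-only when it held no non-promoter region, and enhancer-rich when it held at least 7, the upper quartile over all protein-coding genes. These names stand for counts, since accessibility does not show that a region acts as an enhancer. By this rule 3 of the 10 loci were enhancer-rich, *Ccnd3* and *Cdk6* with 18 non-promoter regions each and *Ccnd1* with 8, while 30.0% of all protein-coding genes were. None (0) was promoter-only, against 16.4% of all. Since all 10 genes have a promoter region, the nearer background is the 14820 protein-coding genes that have one, of which 39.3% were enhancer-rich and 5.05% promoter-only. Not all of these regions were nearest to a start of the gene itself, but 11 of the 18 at *Ccnd3*, 16 of the 18 at *Cdk6* and 3 of the 8 at *Ccnd1*. *Ccnd1* was the locus just inside the limit and *Ccnd2*, with 6, the one just outside it. The other 6 were *Cdk4* and *Cdkn1b* with 4 each, *Cdkn1a* with 3, *Mycn* and *Cdkn2a* with 2 each and *Myc* with 1. Counts that moved by more than 1.5 times in a single replicate were those of *Cdk4* (9), *Cdkn2a* (6) and *Myc* (2) with replicate 1 alone, and of *Cdkn2a* (4) and *Ccnd1* (5) with replicate 2 alone.

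The classes of *Ccnd1* and *Ccnd2*, the loci nearest to the limit, depended on the settings. *Ccnd1* was enhancer-rich in 9 of 15 alternative settings, and not when peaks of replicate 2 were used alone or as whole peaks, with a reciprocal overlap of 50%, with promoters of 2 kb on each side, with summits inside the window or with flanks of 100 kb. *Ccnd2* was enhancer-rich in 4 of the 15, with q-values of at most 1e-10, with promoters of 500 bp or 2 kb on each side and with bounds at the neighbouring protein-coding genes. *Cdk4* was so in 2, with replicate 1 alone and with flanks of 100 kb, and *Myc* and *Mycn* in 1 each, with the neighbouring genes as bounds. *Ccnd3* and *Cdk6* were enhancer-rich in all 15. Long genes have larger windows, and per 100 kb *Ccnd3* had 9.25 non-promoter regions, *Ccnd1* 7.27, *Cdk6* 6.22 and *Ccnd2* 4.72, against a median of 2.82 and an upper quartile of 5.32 over all protein-coding genes. *Cdk4* (3.83) and *Cdkn1b* (3.81) also lay above that median, and *Cdkn1a* (2.73), *Mycn* (1.89), *Cdkn2a* (1.66) and *Myc* (0.953) below it.

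**Figure D3:**
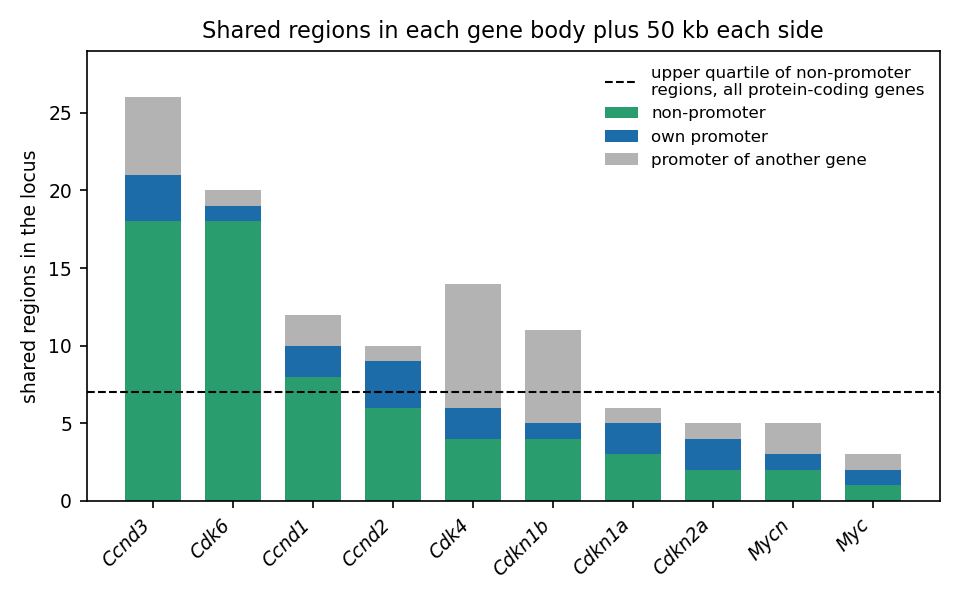
Number of shared regions in each locus (y axis, stacked bars), divided into non-promoter regions (green), promoters of the gene itself (blue) and promoters of other genes (grey). The dashed line is the upper quartile of non-promoter regions over all protein-coding genes (7), which the green bars of *Ccnd3*, *Cdk6* and *Ccnd1* pass.

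Among all protein-coding genes, a promoter region was present at 749 of the 3565 genes with promoter-only loci, 70.8% of the 11660 intermediate ones and 89.1% of the 6530 with enhancer-rich loci. Where a promoter region was present, the median of its fold enrichment was 22.8 (replicate 1) and 22.9 (replicate 2) in promoter-only loci, 23.9 and 24.4 in intermediate loci, and 25.0 and 24.9 in enhancer-rich loci. The genes also differed in length, with medians of 7.27, 15.4 and 40.0 kb, and the part of length in these values was not tested. Among the 10 genes, mean promoter fold enrichment ran from 12.5 to 30.0 in the 3 enhancer-rich loci and from 12.2 to 50.0 in the 7 intermediate ones. The range of the first lay inside that of the second, so the class of a locus did not separate these promoters by level.

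The median over the non-promoter regions of the 10 genes was 5.70 in replicate 1 and 5.41 in replicate 2, against 5.98 and 5.28 over all non-promoter regions. By the mean of both replicates, the 18 regions of *Ccnd3* had a median of 10.4 and the 18 of *Cdk6* a median of 5.18, so loci of equal count differed in the strength of their regions. A fold enrichment above 10 in both replicates, a limit set after the values were seen, was reached by 14 of the 66 regions (21.2%, against 11.6% of all non-promoter regions). Of these, 9 were at *Ccnd3*, 2 at *Ccnd1*, and 1 each at *Ccnd2*, *Myc* and *Cdkn1b*, while *Cdk4*, *Cdk6*, *Mycn*, *Cdkn1a* and *Cdkn2a* had none. In each of *Ccnd1*, *Ccnd2*, *Myc* and *Cdkn1b*, the highest non-promoter region lay from 1.71 to 3.20 kb upstream of the outermost start. In 2 of the 14, those at 47523020 (*Ccnd3*) and 144942660 (*Ccnd1*), the replicate 2 value belongs to a peak whose summit lies in the neighbouring region. Of the 66 regions, 31 lay inside the gene body and 42 were nearest to a start of the gene itself.

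**Figure D4:**
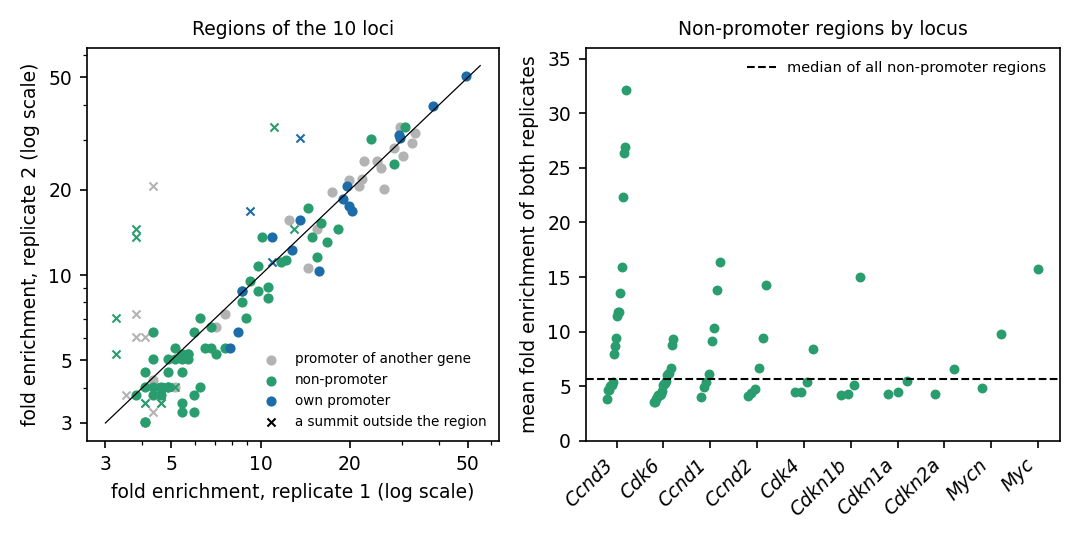
Left, fold enrichment of the 112 regions in replicate 1 (x axis) and replicate 2 (y axis), both on log scales, with the line of equal values; crosses mark regions whose summit lies outside the shared span in a replicate. Right, mean fold enrichment of both replicates for each non-promoter region by locus, with the median of all non-promoter regions (5.71) as a dashed line; *Ccnd3* reaches 32.1 and no region of *Cdk6* passes 9.29.

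Both summits lay inside the shared span in 90 of the 112 regions. Of these, 6 differed by more than 1.5 times in fold enrichment, and the largest ratio was 1.83. In the other 22 regions (19.6%, against 12.0% of all shared regions), a peak of at least 1 replicate extended beyond the region to a summit elsewhere, and 10 of them differed by more than 1.5 times, with a largest ratio of 4.74. Of the peaks in these loci, 28 of 138 in replicate 1 and 22 of 124 in replicate 2 were called in 1 replicate only, and the highest of them stood at 6.79 and 6.54. The share with a counterpart was thus 79.7% and 82.3%, against 81.0% and 82.8% of all peaks.

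In a list of 54 other genes of the pathway, all 54 had a shared promoter region, against 68.1% of all protein-coding genes, and the median of their fold enrichments was 35.2 in replicate 1 and 35.5 in replicate 2. Of their 309 annotated starts, 217 (70.2%) had a shared region within 1 kb, against the 58.2% over all protein-coding genes, with and without a promoter region. The highest promoters were those of *Mxd1*, a MAX partner that opposes MYC (56.5 and 54.0), the activator *E2f3* (57.0 and 50.3) and cyclin A2 gene *Ccna2* (52.4 and 49.8). The lowest were *Mycl*, the remaining MYC family gene (14.1 and 16.6), the mitotic kinase gene *Aurkb* (15.5 and 19.4) and *Rbl1*, a relative of the retinoblastoma gene (17.1 and 17.8). The remaining members of the inhibitor families had 27.2 and 33.4 (*Cdkn1c*), 30.2 and 26.4 (*Cdkn2b*), 39.1 and 41.0 (*Cdkn2c*) and 53.5 and 47.5 (*Cdkn2d*), each above *Cdkn1a* and *Cdkn2a* in both replicates. Of the 54 loci, 27 (50.0%) were enhancer-rich, 26 intermediate and 1 (1.85%) promoter-only, that of *Cdkn2c*, against the 39.3% and 5.05% given above for enhancer-rich and promoter-only loci among genes with a promoter region. The list is not a random draw of genes and was chosen with earlier results of these data known. No test was made of its difference from the 10 genes.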

How the data were processed

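Peaks were called by the authors, per the study's methods, after adaptor trimming with Trim Galore 0.6.6, mapping to GRCm38/mm10 with Bowtie2 2.4.2, SAMtools 1.12 to drop duplicate and poorly mapped reads, and MACS2 on each replicate separately. In the deposited lists, fold enrichment is a ratio at the summit, −log10 p and −log10 q are those of MACS2, and the authors' score is the scaled −log10 q. Removal of ambiguous reads thins peaks in repeats. The methods state a looser p-value limit than the lists show (largest p 4.76e-04 and 0.00104) and another extension length than their shortest peaks, so the settings behind a called or missing peak are not certain.

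Each replicate 1 peak was trimmed to the part covered by replicate 2 peaks (at least 1 bp), merged where touching, which matched bedtools 2.31.1 in all 98924 regions. Promoter regions lie within 1 kb of a start of a protein-coding or lncRNA gene (GENCODE M21). Named were all own promoters and, per locus, the 3 highest non-promoter regions, plus single ones chosen later. Motifs were searched in 300 bp on the replicate 1 summit. The genes and lists were chosen with earlier results of these data known. The code was tested on simulated data (Python 3.11.15, NumPy 2.4.6, Matplotlib 3.10.9).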

Additional observations from a re-analysis of the deposited data

How the results depend on the processing

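No paired analysis was possible because both samples belong to a single group and nothing was compared between groups. All 10 genes had a promoter region under each alternative run for this count, and between 46 and 57 of the 62 starts had one. The 112 shared regions of the loci became 60 with q-values of at most 1e-10 and 182 with flanks of 100 kb, and the 66 non-promoter regions became 25 and 112. With bounds at the neighbouring protein-coding genes, an alternative added after the data were seen, there were 244. The number of promoter-only loci rose from 0 to 2 at the q-value limit (*Cdkn1a* and *Cdkn2a*), and to 1 with promoters of 2 kb on each side (*Myc*), with the starts of every annotated gene (*Myc*) and with neighbouring genes as bounds (*Cdk4*). These bounds also made 6 loci enhancer-rich, where 3 were found. Flanks and limits change these counts by construction. Using 1 replicate alone gave 124 to 138 regions, 78 to 93 of them non-promoter, and 2 to 4 enhancer-rich loci, and *Cdk4* joined them with replicate 1 alone. Of 70 promoter fold enrichments under alternatives that kept both replicates, 1 moved by more than the spread between replicates, that of *Ccnd1* (16.4 with promoters of 2 kb). The read totals were not used here, so a weak site missing from a list cannot be called closed.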

Other observations

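The 50 kb flanks leave out most of the surroundings of *Myc* and *Mycn*, which lie in gene-poor DNA. Between their neighbouring protein-coding genes, bounds that were added after the data were seen, *Myc* had 91 non-promoter regions in 2853 kb (from *A1bg* to *Gsdmc*) and *Mycn* 71 in 836 kb (from *Fam49a* to *Ddx1*). Per 100 kb these are 3.19 at *Myc* and 8.49 at *Mycn*, which thus held the denser territory. *Cdk4*, in a territory of 15.1 kb, had 0, while *Cdkn1a*, *Cdkn1b* and *Cdkn2a* had 3 each. By this count 6 of the 10 genes reached the upper quartile of all protein-coding genes (7), against 25.2% of all genes, and a long territory raises the count.

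In the territory of *Myc*, 67 of the 91 regions lay downstream, and the gene body of *Pvt1* (340 kb) held 38. The highest lay 1080.9 kb downstream of the *Myc* start, at 63065801 to 63066583 on chromosome 15, with 27.7 and 24.4 in replicates 1 and 2. It was nearer to the *Gsdmc* end of the territory (63775967) than to *Myc*. Next came a region in an intron of *Pvt1*, 173.7 kb downstream (62158662 to 62159447), with 16.3 and 24.1. In the territory of *Mycn*, the highest regions lay downstream at 12428650 to 12429382 (17.9 and 19.6) and 12420599 to 12421453 (16.3 and 20.4) on chromosome 12. They lay 512.9 and 520.8 kb from the start, and much nearer to the *Fam49a* end of the territory (12380966) than to *Mycn*. Of the territory regions, 12 at *Myc* (13.2%) and 13 at *Mycn* (18.3%) had a fold enrichment above 10 in both replicates, against 11.6% of all non-promoter regions. Nothing in these data ties a region to either gene.

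Among motifs of cardiac factors in the non-promoter windows, TEAD matches (GGAATG) were found in 14 of 66 (21.2%, against 22.6% of all non-promoter windows), GATA matches (AGATAA) in 9 (13.6%, against 26.3%), T-box matches (GGTGTGA) in 5 (7.58%, against 4.99%) and NKX2 matches in 10 (15.2%, against 18.5%). The median GC content of the same windows was 52.3%, against 49.0%. These shares were not tested.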
